A study of Mus musculus with 12 samples.

Results

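Genes of the skeletal muscle program were followed in sorted thymic epithelial cells (TECs) of mice with and without HOIL: Myog, Myod1, Myf6, Actc1, Acta1, Tnni1, Tnnt3, Myl1, Ttn and Ckm. They were picked by name, as the rows of the deposited count files whose Entrez ID maps to these symbols, and make up 10 of the 27179 genes in the files. All 10 were among the 19398 genes with enough counts to test. HOIL, encoded by Rbck1, is a subunit of the complex that builds linear ubiquitin chains on signalling proteins of the TNF receptor family. RNA of 12 libraries was compared, 3 in each of 4 groups: HOIL-deficient mTEChi, control mTEChi, HOIL-deficient cTECs and control cTECs. HOIL-deficient cells carried the genotype Foxn1creT/+ HOILlox/lox, in which Cre expressed from Foxn1 deletes the floxed gene in TECs. Control cells were Foxn1cre+/+ Hoillox/lox, so they carried the same floxed alleles without the Cre transgene, and their sample labels call them wild type. All mice were of the C57BL/6 strain, and the labels give no age. Replicate 3 of both HOIL-deficient groups was female and the other 10 libraries were male. All cells were sorted as CD45-, TER-119-, CD31- and EpCAM+ cells. Cortical TECs (cTECs) were MHC class II+, Ly51+ and UEA1-, and medullary TECs (mTEChi) were Ly51-, UEA1+ and high for MHC class II.

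The thymic medulla shows developing T cells the proteins of other tissues, so that T cells that recognise the body's own proteins can be removed or diverted. Part of this display is known to come from mimetic cells, medullary epithelial cells that take on the regulators and gene programs of peripheral cell types such as muscle, tuft, ciliated or neuroendocrine cells. Muscle mimetic cells, long known as thymic myoid cells, express Myog and sarcomere proteins. They are of interest in myasthenia gravis, in which antibodies attack the acetylcholine receptor of muscle. In muscle itself, the basic helix-loop-helix regulators encoded by Myod1, Myf6 and Myog bind E boxes in the promoters and enhancers of the genes for the contractile apparatus.

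The promoters of 4 of the genes are shown because the regulators and the filament genes were detected together in mTEChi, and E boxes and CArG boxes are the elements that muscle regulators and serum response factor are known to bind. A window of 300 bases, 250 before the transcription start and 50 after it, was available from RefSeq (GRCm38.p6) for 7 of the 10 genes. In the promoters of Myog (chr1:134289754-134290053, plus strand) and Tnni1 (chr1:135799171-135799470, plus strand, the first of 2 listed starts) the capitals mark the E box CANNTG.
Myog: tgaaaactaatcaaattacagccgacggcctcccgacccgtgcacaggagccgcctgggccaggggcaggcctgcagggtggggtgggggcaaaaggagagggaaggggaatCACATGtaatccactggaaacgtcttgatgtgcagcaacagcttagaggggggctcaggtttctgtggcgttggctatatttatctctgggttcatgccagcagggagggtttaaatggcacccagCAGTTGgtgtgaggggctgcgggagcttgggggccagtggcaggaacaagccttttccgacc
Tnni1: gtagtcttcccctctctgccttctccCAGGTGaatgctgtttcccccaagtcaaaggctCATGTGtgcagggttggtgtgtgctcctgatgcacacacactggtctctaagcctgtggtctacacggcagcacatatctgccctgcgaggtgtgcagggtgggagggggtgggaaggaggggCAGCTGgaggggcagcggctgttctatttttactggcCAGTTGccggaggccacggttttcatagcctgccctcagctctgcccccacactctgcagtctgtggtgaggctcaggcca
In the promoters of Acta1 (chr8:123894726-123895025, minus strand) and Actc1 (chr2:114052826-114053125, minus strand) the capitals mark the CArG box.
Acta1: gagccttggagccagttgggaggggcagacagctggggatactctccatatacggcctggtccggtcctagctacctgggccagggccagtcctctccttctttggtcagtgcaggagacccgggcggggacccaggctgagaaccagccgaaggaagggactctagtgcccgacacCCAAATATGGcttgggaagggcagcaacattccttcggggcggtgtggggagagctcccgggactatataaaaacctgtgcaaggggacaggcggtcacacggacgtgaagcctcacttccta
Actc1: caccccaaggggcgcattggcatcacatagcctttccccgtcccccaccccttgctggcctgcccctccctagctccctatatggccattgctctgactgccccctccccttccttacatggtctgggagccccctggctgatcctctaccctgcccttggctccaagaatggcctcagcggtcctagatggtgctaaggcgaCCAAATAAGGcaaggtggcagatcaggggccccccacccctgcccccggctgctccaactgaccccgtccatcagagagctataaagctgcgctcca
CANNTG, searched on both strands, was found in all 7 promoters and in 72.3% of the 32851 promoters in the table. CAGCTG, which is one form of CANNTG and so overlaps it, was found in 4 of the 7 (Acta1, Ckm, Myl1 and Tnni1) and in 16.3% of all promoters. The Myog promoter had CANNTG at -138 and -12 from the start, and the first Tnni1 promoter had it at -224, -191, -68 and -31. A CArG box was found in Acta1 at -73 and in Actc1 at -47, against 1.63% of all promoters. The strict consensus of the MEF2 box was found in Ttn at -166, against 3.19% of all promoters, and sites that differ from it by 1 letter were not counted. A match is a description of these letters and was not tied to any binding in these cells.

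The libraries held 7941217 to 14274333 counts, and in CPM (counts scaled to the library total) the 10 genes together made up 252 to 328 in HOIL-deficient mTEChi and 261 to 300.4 in control mTEChi. The targeted gene was low where its deletion was labelled: Rbck1 averaged 15.3 CPM in HOIL-deficient mTEChi and 117 CPM in control mTEChi, a log2 fold change of -2.99 (SE 0.27, edgeR adjusted p = 4.5e-05). In cTECs it averaged 25.9 CPM in HOIL-deficient and 213 CPM in control cells (-3.13, edgeR adjusted p = 2.8e-05). RNA composition also differed between the mTEChi groups. Mitochondrial transcripts took 1.71 to 1.91% of the counts in HOIL-deficient mTEChi and 3.19 to 8.93% in control mTEChi, and Malat1 took 0.713 to 0.983% and 3.29 to 5.13%. The part of this difference in the results below was not tested. The 6 mTEC marker genes summed to 11664 to 14708 CPM in HOIL-deficient and 8309 to 10437 CPM in control mTEChi, without overlap. In HOIL-deficient and control cTECs they summed to 3845 to 4310 CPM and 3935 to 3988 CPM. Myog had counts in every mTEChi library and in no cTEC library. Sorted RNA is a mixture, so fewer muscle-like cells and less muscle RNA per cell cannot be told apart. The labels do not say that replicates came from separate animals, so p-values measure only the spread between these samples.

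**Figure D1:**
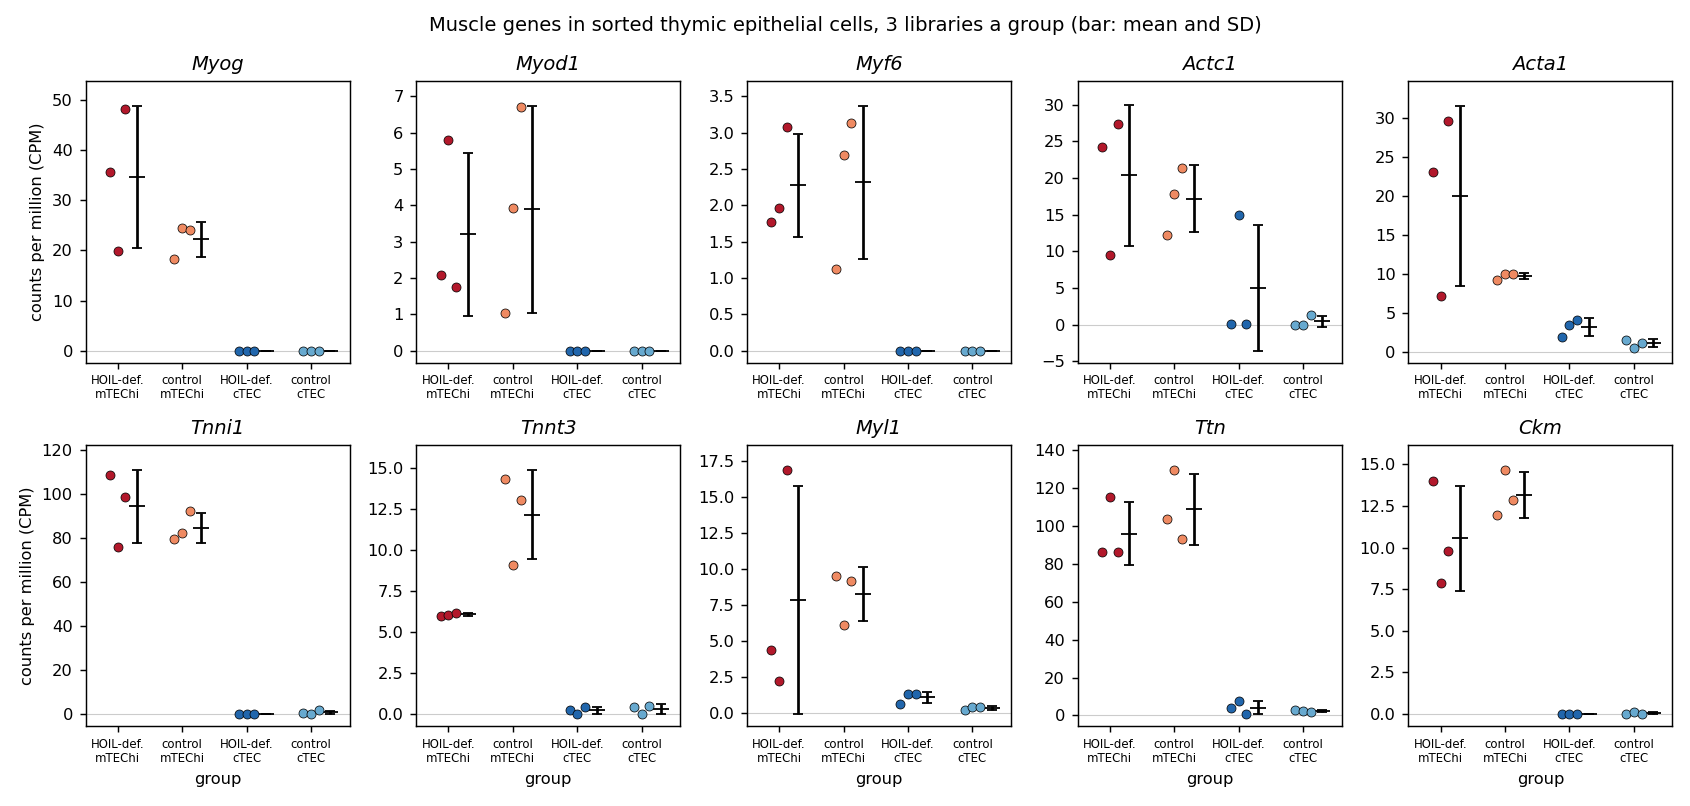
Level of each of the 10 muscle genes in CPM (y axis) in each library (points) of the 4 groups (x axis), with the mean and SD of 3 libraries as a bar. In both mTEChi groups every library has counts of all 10 genes, whereas Myog, Myod1 and Myf6 are at 0 in all cTEC libraries.

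The 3 regulators were present in mTEChi with and without HOIL, and none of them passed the test between the genotypes. Myog (Entrez ID 17928, on GRCm38.p6 chromosome 1, 134290004 to 134292548), which drives differentiation of myoblasts into muscle, had 35.7, 19.9 and 48.3 CPM in HOIL-deficient mTEChi and 18.2, 24.4 and 24.2 CPM in control mTEChi. Replicates 1 and 3 without HOIL were above all controls, replicate 2 lay among them, and the groups overlapped. The log2 fold change was 0.58 (SE 0.34, edgeR adjusted p = 0.27, 0.0999 to 0.69 over 14 alternative analyses). Myod1 (chromosome 7, 46376474 to 46379092), a regulator that can convert other cells to muscle, had 2.07, 5.79 and 1.75 CPM in HOIL-deficient and 1.02, 3.93 and 6.71 CPM in control mTEChi. Its level varied 3.31-fold among HOIL-deficient and 6.56-fold among control libraries, with overlapping groups (-0.32, SE 0.78, edgeR adjusted p = 0.82). Myf6 (chromosome 10, 107492848 to 107494723), a regulator of late muscle differentiation, had 1.78, 1.96 and 3.08 CPM in HOIL-deficient and 1.13, 2.69 and 3.12 CPM in control mTEChi. Here too the ranges overlapped (-0.06, SE 0.67, edgeR adjusted p = 0.98). At these low levels a difference smaller than about the spread of the libraries was not detectable.

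Of the 6 filament genes, Tnnt3 was the only one whose mTEChi libraries did not overlap between genotypes. Tnnt3 (chromosome 7, 142498771 to 142516213), the fast troponin T that ties the troponin complex to tropomyosin, had 6.02, 6.07 and 6.17 CPM in HOIL-deficient mTEChi and 14.3, 9.10 and 13.1 CPM in control mTEChi. All 3 HOIL-deficient libraries lay below all 3 controls. The log2 fold change of -1.08 (SE 0.56) missed the threshold over all genes (edgeR adjusted p = 0.19). Over 14 alternatives its adjusted p ranged from 0.028 to 0.44, and it passed in DESeq2 (-1.16) and in an edgeR fit of the 2 mTEChi groups alone (-1.08).

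The sarcomeric actins were uneven without HOIL. Acta1 (chromosome 8, 123891758 to 123894775), the actin of adult skeletal muscle, had 23.2, 7.29 and 29.7 CPM in HOIL-deficient mTEChi and 9.32, 10.03 and 10.07 CPM in control mTEChi. Replicates 1 and 3 without HOIL were above every control and replicate 2 was below every control, a spread of 4.08-fold against 1.08-fold among controls. The log2 fold change was 0.97 (SE 0.46, edgeR adjusted p = 0.15, 0.036 to 0.48 over the alternatives), and it passed the test, at 1.37, when HOIL-deficient replicate 2 was left out. Actc1 (chromosome 2, 114047282 to 114052875), the actin of heart and of developing skeletal muscle, had 24.3, 9.43 and 27.4 CPM in HOIL-deficient and 12.3, 17.8 and 21.4 CPM in control mTEChi. It had the same order of HOIL-deficient libraries as Acta1, and the groups overlapped (0.20, SE 1.14, edgeR adjusted p = 0.93). Of the 75-base runs in their transcripts, 0.394% in Acta1 and 0% in Actc1 also occurred in another gene. Only identical runs were counted, so this does not cover reads placed with a mismatch. Acta2, a smooth muscle actin, averaged 218 CPM in HOIL-deficient and 50.6 CPM in control mTEChi. Its part in the counts of Acta1 and Actc1 was not tested.

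The other 3 filament genes overlapped between genotypes. Tnni1 (chromosome 1, 135783033 to 135810989), the slow troponin I that inhibits contraction until calcium binds, had 108.5, 75.9 and 98.8 CPM in HOIL-deficient and 79.6, 82.1 and 92.5 CPM in control mTEChi (0.09, SE 0.38, edgeR adjusted p = 0.89). Ttn (chromosome 2, 76703980 to 76982557), the giant spring protein of the sarcomere, had 86.0, 115 and 86.5 CPM in HOIL-deficient and 104, 130 and 92.9 CPM in control mTEChi (-0.24, SE 0.41, edgeR adjusted p = 0.72). Both were steady, with no more than a 1.43-fold spread among the libraries of either mTEChi group. Myl1 (chromosome 1, 66924295 to 66947932), the alkali light chain of fast myosin, was the most variable, with 4.34, 2.24 and 16.9 CPM in HOIL-deficient and 9.52, 6.10 and 9.14 CPM in control mTEChi. The female replicate 3 held the highest HOIL-deficient value, 7.53-fold above the lowest, and the comparison of genotypes was undecided (-0.15, SE 0.60, edgeR adjusted p = 0.89). Of the 75-base runs in Myl1 transcripts, 8.08% also occurred in the pseudogene Mylf-ps.

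Ckm (chromosome 7, 19411094 to 19421583), the muscle creatine kinase that buffers ATP, had 14.01, 7.85 and 9.81 CPM in HOIL-deficient mTEChi and 11.98, 14.7 and 12.8 CPM in control mTEChi. Replicate 1 without HOIL lay among the controls and the other 2 below them (-0.38, SE 0.41, edgeR adjusted p = 0.56). Of its 75-base runs, 8.26% were shared with A930016O22Rik, so a part of its counts is uncertain. Counting is not stated to use strand, so reads of antisense genes cannot be told apart either.

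Across the 10 genes, 0 passed the edgeR test for HOIL deficiency in mTEChi, where 19.9% of all tested genes did. At an unadjusted p under 0.05 there were also 0, DESeq2 called 1 (Tnnt3) and limma-voom 0. Of all genes, 2191 were higher and 1667 lower, a split that DESeq2 turned to 2197 higher and 2559 lower. It also turned in limma-voom, to 2227 higher and 2426 lower, and in edgeR with another scaling (RLE factors), to 1748 higher and 1973 lower. The median log2 fold change of the muscle genes was -0.11, beside -0.03 for all genes tested. Libraries without overlap were found for 1 gene, lower, where 20.6% of all genes were lower and 23.8% higher without overlap. Among HOIL-deficient libraries, replicate 3 was highest for 6 genes and replicate 2 lowest for 6. Among control libraries, replicate 3 was highest for 5 and replicate 1, which had 8.93% mitochondrial counts, lowest for 7.

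**Figure D2:**
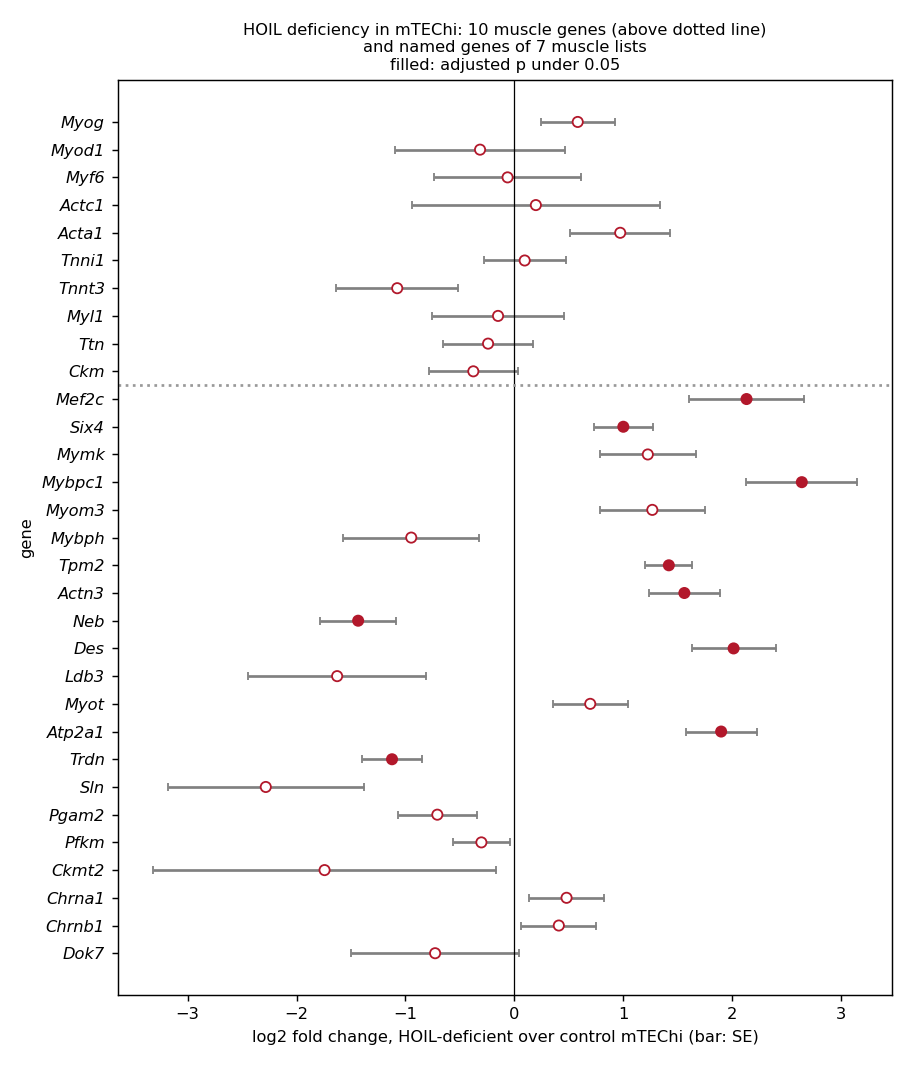
Log2 fold change of HOIL-deficient over control mTEChi (x axis) with its SE for the 10 muscle genes (above the dotted line) and the named genes of 7 other skeletal muscle lists, filled where the adjusted p was under 0.05. None of the 10 genes is filled, and the largest filled changes are those of Mybpc1 (2.64), Mef2c (2.13) and Des (2.01).

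Levels of different genes were compared per length, as TPM, in which counts are scaled by gene length and library. In HOIL-deficient mTEChi, Tnni1 led with 134 ± 22.6 TPM, followed by Myog at 36.9 ± 14.7, Actc1 at 23.1 ± 10.7 and Acta1 at 22.1 ± 12.5 TPM (SD, n = 3). Below them came Ckm at 11.8, Myl1 at 11.0 and Tnnt3 at 8.60 TPM, and last Myf6 at 2.88, Myod1 at 2.76 and Ttn at 1.46 TPM. Neighbours in this order overlapped in their libraries except at 2 steps, from Tnni1 to Myog and from Tnnt3 to Myf6. In control mTEChi, Tnni1 again led, with 112 ± 11.8 TPM, before Myog at 22.3 ± 4.45 TPM and Actc1 at 18.3 ± 5.40 TPM (SD, n = 3). Tnnt3 followed at 15.9 TPM and Acta1 came only after Ckm and Myl1, at 10.1 TPM. The steps without overlap were those from Tnni1 to Myog and from Acta1 to Myod1, and Ttn was again last, at 1.54 TPM. The place of Ttn rests on its deposited length of 104320 bases. In CPM it had the highest mean of the 10 genes, 95.9 in HOIL-deficient and 109 in control mTEChi. Whether reads covered that whole length was not tested, so its TPM may be too low.

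Isoform makeup was described per length as 7 shares, for families chosen after their values were seen. With 3 libraries a group, an exact permutation test of a share cannot go below 0.1, so none can pass and the shares are only described. Among the 3 troponin I genes, Tnni1 held 86.6, 88.2 and 89.1% of the TPM in HOIL-deficient mTEChi and 54.4, 74.7 and 70.8% in control mTEChi. All HOIL-deficient libraries were above all controls. Both partners were low without HOIL: Tnni2, the fast troponin I, had 3.23 CPM in HOIL-deficient and 11.1 CPM in control mTEChi (-1.85, edgeR adjusted p = 0.071), and Tnni3, the cardiac one, 5.60 and 19.1 CPM (-1.87, edgeR adjusted p = 0.077). Neither passed edgeR, although their libraries did not overlap. Of the actin pair, Actc1 held 51.9, 57.2 and 48.7% in HOIL-deficient mTEChi and 57.6, 64.6 and 68.7% in control mTEChi, a narrow separation. Tnnt3 held 13.3 ± 1.49% of the troponin T genes in HOIL-deficient and 13.2 ± 2.11% in control mTEChi (SD, n = 3), so that its low level went with a low level of its family. Tnnt2, the troponin T of heart and embryonic muscle and the main source of that family, fell to 34.1 CPM in HOIL-deficient mTEChi, against 76.8 CPM in control mTEChi (-1.25, SE 0.41, edgeR adjusted p = 0.046). That call was lost in 8 of 14 alternatives (adjusted p 0.0072 to 0.21), among them those that left out any 1 mTEChi library other than control replicate 2. Chrng, the fetal subunit of the acetylcholine receptor, held 45.0 ± 5.32% of the pair with its adult replacement Chrne in HOIL-deficient and 39.2 ± 17.6% in control mTEChi, with overlapping libraries.

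**Figure D3:**
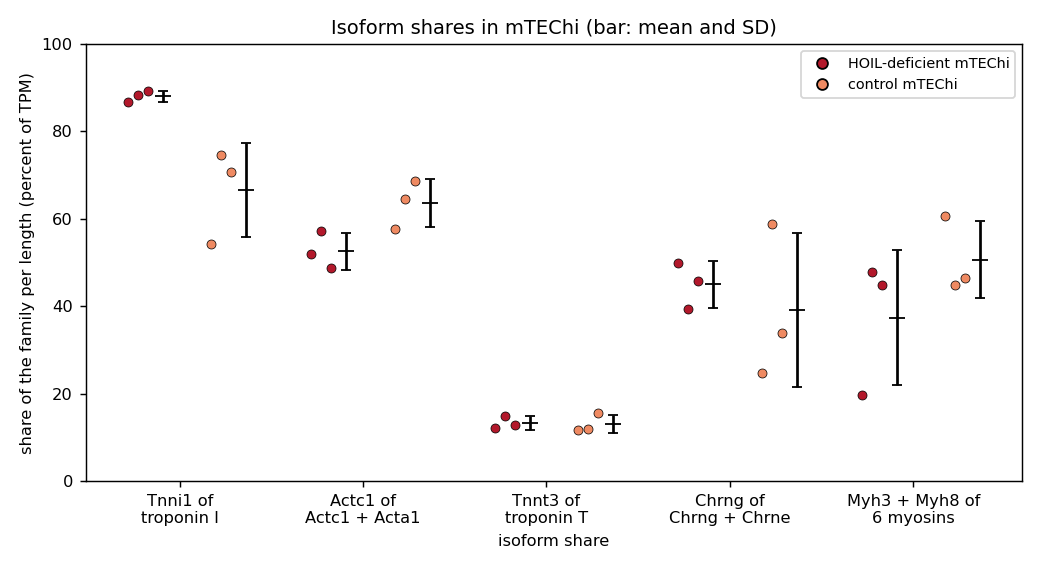
Share of an isoform in the summed TPM of its family, in percent (y axis), for 5 families (x axis) in HOIL-deficient and control mTEChi libraries (points), with the mean and SD of 3 libraries as a bar. Only the shares of Tnni1 and Actc1 separate the groups, with Tnni1 at 86.6 to 89.1% in HOIL-deficient and 54.4 to 74.7% in control mTEChi.

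The wider muscle program was given by 7 lists of 80 other skeletal muscle genes, 75 of them tested. In HOIL-deficient against control mTEChi 7 were higher and 3 lower, beside 11.3% of all genes higher and 8.59% lower, with a median log2 fold change of -0.18. Of 11 regulators 2 rose: Mef2c, a partner of the Myod1 family, to 15.7 CPM in HOIL-deficient mTEChi, against 3.42 CPM in control mTEChi (2.13, SE 0.52, edgeR adjusted p = 0.013), and Six4, a homeobox regulator, to 19.8 CPM, against 9.56 CPM (1.00, SE 0.27, edgeR adjusted p = 0.021). Both calls were lost in some alternatives, 2 for Mef2c (up to an adjusted p of 0.067) and 5 for Six4 (up to 0.098). Mymk, the membrane protein that fuses myoblasts, had 28.2, 21.7 and 16.7 CPM in HOIL-deficient and 5.94, 11.5 and 10.2 CPM in control mTEChi without passing (1.22, edgeR adjusted p = 0.071, 0.014 to 0.24 over the alternatives). Of 16 thick filament genes only Mybpc1, the slow myosin-binding protein C, rose (2.64, SE 0.51, edgeR adjusted p = 0.0034).

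Thin filament genes moved in both directions, with 2 higher and 2 lower of 12. Tpm2, a tropomyosin, rose to 672, 643 and 469 CPM in HOIL-deficient mTEChi, against 243, 166 and 225 CPM in control mTEChi (1.42, SE 0.22, edgeR adjusted p = 0.00095). Actn3, the fast-fibre actinin, rose to 517 CPM in HOIL-deficient mTEChi, against 169 CPM in control mTEChi (1.56, SE 0.33, edgeR adjusted p = 0.0055). Neb, nebulin, which lies along the thin filament, fell to 16.5, 15.0 and 14.4 CPM, against 39.4, 39.4 and 39.7 CPM in control mTEChi (-1.43, SE 0.35, edgeR adjusted p = 0.012). Tnnt2, which was named after its values were seen and whose call was lost in 8 of 14 alternatives, was the other lower gene. Of 10 Z disc genes Des, the muscle intermediate filament desmin, rose (2.01, SE 0.39, edgeR adjusted p = 0.0033). Of 11 genes of calcium release and uptake, Atp2a1, the fast calcium pump, rose (1.90, SE 0.33, edgeR adjusted p = 0.0019), and Trdn, triadin of the calcium release unit, fell (-1.12, SE 0.28, edgeR adjusted p = 0.013, lost in 2 alternatives). Sln, sarcolipin, which inhibits calcium pumps, had 1.48, 1.68 and 7.08 CPM in HOIL-deficient and 15.2, 17.4 and 15.7 CPM in control mTEChi, without overlap and without a call (-2.28, SE 0.90, edgeR adjusted p = 0.089, 0.0098 to 0.23 over the alternatives). Of 7 energy genes and 8 synapse genes, 0 passed edgeR, and 0 of either list passed at an unadjusted p under 0.05, in DESeq2 or in limma-voom. Pgam2, the muscle phosphoglycerate mutase, changed by -0.71 without a call, and by -1.33 (edgeR adjusted p = 0.016) when HOIL-deficient replicate 1 was left out. Chrna1, the receptor subunit bound by most myasthenia antibodies, had 27.3, 25.1 and 30.6 CPM in HOIL-deficient and 17.6, 19.1 and 20.4 CPM in control mTEChi, without overlap (0.48, SE 0.34, edgeR adjusted p = 0.36).

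Genes that smooth muscle also uses, such as Tpm2 and Des, stood beside higher markers of some other cells, though not of all. The 11 smooth muscle and pericyte markers summed to 520 to 801 CPM in HOIL-deficient mTEChi and 321 to 338 CPM in control mTEChi, and 2 of them (Acta2 and Myh11) passed as higher. The 6 endothelial markers summed to 85.3 to 317 CPM and 27.8 to 44.0 CPM, with 5 higher, and the 8 fibroblast markers to 336 to 476 CPM and 113 to 189 CPM, with 1 higher, where 11.3% of all genes were higher. The adipocyte markers overlapped, at 1126 to 1563 CPM in HOIL-deficient and 946 to 2001 CPM in control mTEChi, with 1 of 9 tested higher. The thymocyte markers overlapped too, at 137 to 252 CPM and 117 to 180 CPM, with 0 of 10 called. None of these markers was at 0 in all libraries of either mTEChi group, and their part in the muscle results was not tested. Of the muscle genes that rose in mTEChi, Tpm2, Des, Actn3, Six4 and Mef2c were also expressed in cTECs, where Myog, Myod1 and Myf6 were at 0. Tpm2 averaged 384 CPM in HOIL-deficient and 45.9 CPM in control cTECs, and Des 47.8 and 7.12 CPM. Actn3 averaged 274 CPM in HOIL-deficient and 220 CPM in control cTECs, Six4 37.5 and 34.7 CPM, and Mef2c 29.8 and 6.42 CPM. Mybpc1 had 8.17, 8.91 and 2.64 CPM in HOIL-deficient and 0, 0.630 and 0.413 CPM in control cTECs, without overlap. Its mean in HOIL-deficient cTECs, 6.57 CPM, was near its mean in control mTEChi, 5.98 CPM. Atp2a1 averaged 1.76 CPM in HOIL-deficient and 3.09 CPM in control cTECs. The 11 cardiac markers, 10 of them tested, summed to 94.1 to 117 CPM in HOIL-deficient and 192 to 246 CPM in control mTEChi, and 0 passed edgeR (2 at an unadjusted p under 0.05, 1 in DESeq2, which was Tnni3, and 2 in limma-voom, all lower).

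Lists of 6 genes each for other mimetic cells were set beside the muscle genes. Like those, they were chosen with earlier results of these data known, so this is a description. In HOIL-deficient against control mTEChi, 4 tuft, 5 ciliated, 5 keratinized, 3 microfold and 1 neuroendocrine gene fell in edgeR, where 8.59% of all genes did. DESeq2 called 3 tuft and 2 microfold genes lower, and limma-voom 5 and 4, with the other lists unchanged. The median log2 fold changes of these lists were -1.50 for tuft, -1.65 for ciliated, -2.56 for keratinized, -1.44 for microfold and -0.45 for neuroendocrine cells, against -0.11 for the 10 muscle genes and -0.03 for all genes tested. Whether the muscle genes differed from these lists was not tested.

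**Figure D4:**
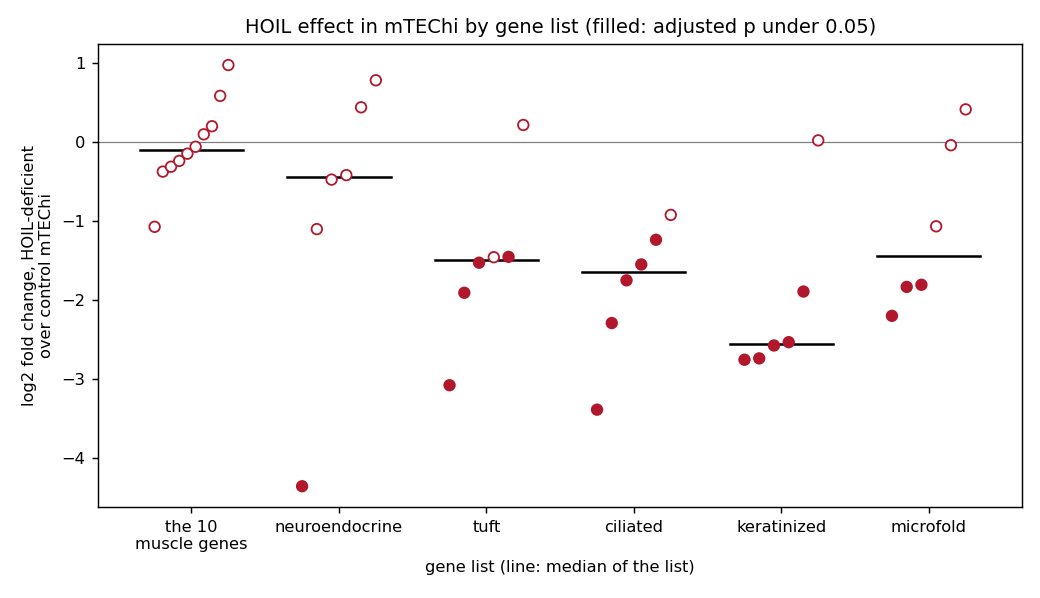
Log2 fold change of HOIL-deficient over control mTEChi (y axis) for each gene of 6 lists (x axis), filled where the adjusted p was under 0.05, with the list's median as a line. The 10 muscle genes lie around 0, between -1.08 and 0.97, and the keratinized list has the lowest median, -2.56.

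Between the compartments, all 10 muscle genes were higher in control mTEChi than in control cTECs, with no overlap between libraries. Of all genes tested, 64.2% passed this test, 37.8% as higher, and 39.6% were higher without overlap. The filter on low counts passes a gene that is at 0 in cTECs only for its level in mTEChi, so this count was fixed in part by the choice of tested genes. Myog was at 0 in all 3 control cTEC libraries and so at least 211-fold higher in control mTEChi, taking 3 counts over the group as the limit that 0 allows (0.105 CPM). By the same limit Myod1 was at least 36.9-fold and Myf6 at least 22.0-fold higher. Ckm had 1 count in control cTECs, and the ratio was 375 with an exact 95% counting interval of 66.9 to 14863. These limits and intervals cover counting error only. Tnni1 had 0.184, 0 and 1.55 CPM in control cTECs (7.23, SE 0.56, edgeR adjusted p = 4.9e-07), and Ttn 3.13, 2.14 and 1.76 CPM (5.60, SE 0.53, edgeR adjusted p = 9.0e-07). Acta1 showed the smallest change of the 10, with 1.66, 0.630 and 1.24 CPM in control cTECs (3.11, SE 0.53, edgeR adjusted p = 0.00018). The log2 fold changes of Actc1, Tnnt3 and Myl1 were 5.29, 5.21 and 4.75. All 13 counts of Actc1 in control cTECs lay in replicate 3, and its value ran from 4.66 to 10.54 over the alternatives, the highest without that library. The median of the 10 was 6.42 as fitted and 5.25 with the 3 regulators at their bounds, beside 0.24 for all genes tested.

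The wider lists went the same way, with 53 of 75 genes higher and 5 lower in control mTEChi than in control cTECs, beside 37.8% of all genes higher and 26.4% lower. The filter on low counts passed those at 0 in cTECs only for their level in mTEChi, so this count too was fixed in part. Mymx, the second fusion protein of myoblasts, was at 0 in control cTECs and at least 155-fold higher in control mTEChi. Chrna1 was at least 181-fold and Myot (myotilin) at least 119-fold higher. Of genes with counts on both sides, Myh4, the fastest myosin heavy chain, was higher by 6.33 on the log2 scale (edgeR adjusted p = 8.6e-07), Neb by 6.22 (edgeR adjusted p = 1.0e-07) and Cacna1s, the voltage sensor of contraction, by 6.10 (edgeR adjusted p = 1.1e-07). Of the acetylcholine receptor, Chrne had 2 counts in control cTECs, a ratio of 102 with an exact 95% counting interval of 28.0 to 852. Smaller changes were those of Eno3 (3.72) and Pygm (2.76), the muscle forms of enolase and glycogen phosphorylase, Tpm2 (2.31) and Trdn (1.83). Among the lower genes were Mef2a, Mef2d, Six4 and Tmod4, named after their values were seen.

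Without HOIL, 9 of the 10 genes were higher in mTEChi than in cTECs, where 48.4% of all genes passed and 32% were higher. The same 9 did not overlap between libraries, as did 32.8% of all genes in this direction. Here too the filter on low counts fixed the count in part, for the genes at 0 in cTECs. Tnni1 was at 0 in HOIL-deficient cTECs and at least 990-fold higher in HOIL-deficient mTEChi, Myog at least 363-fold, Ckm at least 111-fold, Myod1 at least 33.6-fold and Myf6 at least 23.8-fold. Ttn (4.72), Tnnt3 (4.69), Myl1 (2.96) and Acta1 (2.72) were higher on the log2 scale, each with an edgeR adjusted p of at most 0.0023. The median was 6.15 as fitted and 4.70 with the 5 genes at 0 at their bounds. Actc1 was the exception. It had 0.118, 15.0 and 0.0754 CPM in HOIL-deficient cTECs, so replicate 2 alone reached the range of mTEChi (2.12, SE 1.20, edgeR adjusted p = 0.17). Without that library the log2 fold change was 7.72 (edgeR adjusted p = 0.00012), and limma-voom with all libraries gave 5.001 (adjusted p = 0.0037).

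That HOIL-deficient cTEC replicate stood apart in genes of heart muscle. Its 11 cardiac markers summed to 221.5 CPM, against 4.26 and 6.18 CPM in the other HOIL-deficient cTEC libraries and 2.95 to 7.64 CPM in control cTECs. Nppa, the atrial natriuretic peptide, had 155 CPM there, Myh6, the cardiac myosin, 31.8, Myl7, the atrial light chain, 14.4, and Tnni3 10.7 CPM. The cardiac genes Nppb, Tbx20 and Mybpc3 were at 0 in it, as were the skeletal genes Myog, Myod1, Myf6, Tnni1, Tnnt3 and Ckm.

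**Figure D5:**
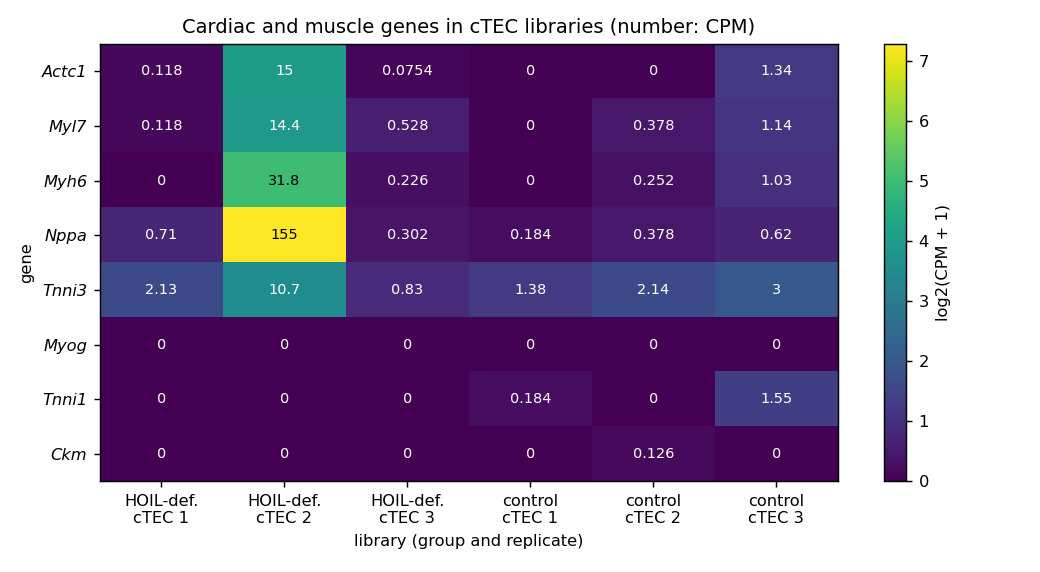
CPM (number in each cell, colour on a log2 scale of CPM + 1) of 5 cardiac genes and 3 skeletal muscle genes (y axis) in the 6 cTEC libraries (x axis). Replicate 2 of the HOIL-deficient cTECs holds 155 CPM of Nppa and 31.8 CPM of Myh6, and Myog is at 0 in all 6 libraries.

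In cTECs the muscle genes were near or at the limit of detection, and HOIL deficiency gave 1 call among the 10, where 12.1% of all genes passed. Tnni1 had 0 CPM in all HOIL-deficient cTEC libraries and 0.184, 0 and 1.55 CPM in control cTECs, which makes it at least 6.06-fold lower without HOIL (edgeR adjusted p = 0.044). This rested on control replicate 3, which held 15 of 17 counts, and the call was lost in 8 of 13 alternatives (adjusted p 0.0065 to 0.21). Acta1 had 2.01, 3.59 and 4.22 CPM in HOIL-deficient and 1.66, 0.630 and 1.24 CPM in control cTECs, without overlap (1.36, SE 0.53, edgeR adjusted p = 0.12). Myl1 had 0.592, 1.33 and 1.28 CPM in HOIL-deficient and 0.184, 0.378 and 0.413 CPM in control cTECs, also without overlap (1.64, SE 0.82, edgeR adjusted p = 0.22). Higher libraries without overlap were thus seen for 2 of 10 genes and lower ones for none, beside 15.9% of all genes higher and 12% lower. Ttn had 3.67, 7.58 and 0.830 CPM in HOIL-deficient and 3.13, 2.14 and 1.76 CPM in control cTECs (0.65, SE 0.54, edgeR adjusted p = 0.49), and was -0.27 without HOIL-deficient replicate 2 and 1.18 (adjusted p = 0.048) without HOIL-deficient replicate 3. For Actc1 the log2 fold change was 3.37 (SE 1.54, edgeR adjusted p = 0.18) and -2.24 (adjusted p = 0.41) without replicate 2. Tnnt3 had at most 0.517 CPM in any cTEC library. Myog, Myod1 and Myf6 had no counts in cTECs of either genotype and Ckm 1 count in all, so no fold is given for them. The median log2 fold change of the other 6 genes was 1.00, beside -0.02 for all genes tested, and it was -0.15 without HOIL-deficient replicate 2.

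Of the 75 other muscle genes tested in cTECs, 9 were higher and 3 lower without HOIL, beside 6.06% of all genes higher and 6.02% lower. The smallest p was that of Tpm2, at 349, 448 and 357 CPM in HOIL-deficient and 55.7, 41.1 and 40.9 CPM in control cTECs (2.97, SE 0.23, edgeR adjusted p = 1.0e-05). Des rose to 47.8 CPM in HOIL-deficient cTECs, against 7.12 CPM in control cTECs (2.63, edgeR adjusted p = 0.0014), and Mef2c to 29.8 CPM, against 6.42 CPM (2.12, edgeR adjusted p = 0.016). The 12 calls became 7 higher and 0 lower without HOIL-deficient cTEC replicate 2. The lower calls were also at 0 without HOIL-deficient replicate 3, in males and in the fit of only the 2 cTEC groups. In cTECs too the smooth muscle and pericyte markers stood apart, at 1266 to 1885 CPM in HOIL-deficient and 256 to 411 CPM in control cells, with 7 of 11 higher. The adipocyte markers summed to 325 to 643 CPM in HOIL-deficient and 22.9 to 47.7 CPM in control cTECs, with 7 of 9 tested higher. Of these markers Lep and Ucp1 were at 0 in all cTEC libraries, Cidea in all HOIL-deficient ones and Plin1 in all control ones. The endothelial markers summed to 68.1 to 180 CPM and 21.3 to 36.2 CPM, with 5 of 6 higher, and the fibroblast markers to 1843 to 2873 CPM and 145 to 1252 CPM, with 2 of 8 higher. Thymocyte markers were lower, at 347 to 689 CPM in HOIL-deficient and 852 to 3081 CPM in control cTECs, with 9 of 10 lower, as were the cTEC markers themselves, with 5 of 6 lower. The part of these other cells in the muscle calls was not tested.

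The difference between the HOIL effects in mTEChi and in cTECs passed edgeR for 0 of the 10 genes, against 9.84% of all genes. At an unadjusted p under 0.05 there was 1, Tnni1 (edgeR adjusted p = 0.053, 0.021 to 0.18 over 19 alternatives), and DESeq2 called the same gene. No size is given for this difference, because Tnni1 was at 0 in HOIL-deficient cTECs, and it rested on control cTEC replicate 3, which held 15 of the 17 counts (adjusted p = 0.18 without it). Of the other muscle genes, the effect was higher in mTEChi for Mymk and Atp2a1 and lower there for Tnnt2, Tpm1, Tpm2, Sln, Trdn and Pgam2, beside 5.97% of all genes higher and 3.86% lower. Trdn, for example, changed by -1.12 in mTEChi and by 1.03 in cTECs, a difference of -2.15 (SE 0.40, edgeR adjusted p = 0.0064). Mymk was at 0 in HOIL-deficient cTECs and had 6 counts in control cTECs. Of the 35 counts of Sln in HOIL-deficient cTECs, 32 lay in replicate 2, and control cTECs had 2 counts. The cTEC side of the Mymk and Sln differences thus rests on few counts.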

How the data were processed

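RNA of 12 libraries was sequenced in 75-base paired ends on a NextSeq instrument after SMART-Seq v4 amplification and Nextera XT library preparation, per the labels' protocols. The deposited files hold the authors' raw counts per gene with the gene length, made with featureCounts on mm10, per the submitters' processing notes. The sources used here do not give the aligner, annotation release or strand setting. RefSeq symbols (GRCm38.p6) matched 25275 IDs. The deposited table that joins the libraries was not used. From the counts, CPM and TPM were computed with library totals and the deposited lengths.

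Counts were fitted in R 4.3.3 with edgeR 4.0.16: genes kept by filterByExpr, TMM scaling, a robust quasi-likelihood fit over all 12 libraries with 1 coefficient per group, and Benjamini-Hochberg adjusted p-values over the 19398 tested genes, called under 0.05. SE is the log2 fold change over the square root of F. Runs of 75 bases shared between genes were counted in GENCODE transcripts. Alternatives used RLE factors, DESeq2 1.42.0, limma 3.58.1 voom, other filters, each library left out, male libraries only, a replicate block, and only the 2 groups compared.

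The members and lists were chosen with earlier results of these data known. Named were the 10 genes, Rbck1, and from each other muscle list the tested genes with the smallest p, 3 in HOIL-deficient against control mTEChi and 2 in control mTEChi against control cTECs, and not all of these are reported here. Other genes with values are lists' members or isoform partners named after their values were seen.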

Additional observations from a re-analysis of the deposited data

How the results depend on the processing

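Of the alternative values for single genes, 1071 kept their direction and side of the threshold, 20 gained a call, 17 lost it and 20 changed sign. Of the 10 genes, those called for HOIL deficiency in mTEChi numbered 1 in DESeq2, 1 in the fit of only 2 groups and 0 to 1 with a library left out, the 1 being Acta1 without HOIL-deficient replicate 2. In cTECs they numbered 0 in limma-voom, with no filter, in males, with the replicate block and with only 2 groups, and 0 to 1 with a library left out, with 0 when HOIL-deficient replicate 1 or 2 or control replicate 3 was dropped and Ttn, higher, in place of Tnni1 when HOIL-deficient replicate 3 was. For the difference of effects they numbered 1 in DESeq2 and 0 to 1 with a library left out, the 1 being Tnni1 when control cTEC replicate 1 or 2 was dropped and Myl1 when HOIL-deficient mTEChi replicate 3 was. Of the other muscle genes, HOIL deficiency in cTECs called 12, with 19 in DESeq2, 6 with only 2 groups and 7 to 14 with a library left out. The difference called 8, with 5 with the replicate block and 5 to 10 with a library left out; 5 was reached without HOIL-deficient cTEC replicate 2, HOIL-deficient mTEChi replicate 1 or 2, or control mTEChi replicate 1 or 3. In mTEChi these genes numbered 10, and 7 to 10 with a library left out.

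Over all genes, mTEChi calls numbered 3858, and 1944 to 3116 with a library left out, with 1944 and 2279 when control replicate 1 or 3 was dropped and 2558 and 2343 when HOIL-deficient replicate 1 or 2 was. In cTECs 2342 became 1540 in males, 1395 with only 2 groups and 1340 to 2306 with a library left out, with 1340 when control replicate 3 was dropped and 1445 when HOIL-deficient replicate 2 was. For the difference 1908 became 1030 in males and 949 to 2088 with a library left out, with 949 without control mTEChi replicate 3, 1172 without control mTEChi replicate 1, 1182 without HOIL-deficient mTEChi replicate 3 and 1256 without control cTEC replicate 3. RLE factors turned its split from 1159 higher and 749 lower to 714 higher and 873 lower, and shifted the median of all genes by -0.14 there and by 0.19 in control mTEChi against control cTECs. The causes were not tested.

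Changes of sign in mTEChi did not pass the threshold. With a library left out, Myod1 ran from -1.05 to 0.31, Myf6 from -0.39 to 0.20, Actc1 from -0.078 to 0.55, Tnni1 from -0.023 to 0.24 and Myl1 from -1.39 to 0.29; in males Myod1 was 0.000917 and Actc1 -0.059, and in limma-voom Myf6 was 0.0155. In cTECs with a library left out, Actc1 ran from -2.24 to 8.62 and Ttn from -0.27 to 1.18, the lowest without HOIL-deficient replicate 2. For the difference of effects, with a library left out, Actc1 ran from -8.42 to 2.44, Acta1 from -0.81 to 0.013, Tnnt3 from -1.04 to 0.53 and Ttn from -1.41 to 0.038, and Tnnt3 was 0.52 in males.

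Whether replicate numbers pair the samples was not settled. The correlation of same-numbered libraries' deviations from their group means ran from -0.16 to 0.098, and with the replicate block the mTEChi comparison called 3288 genes. Between HOIL-deficient mTEChi and cTECs, same numbers gave 0.049, 0.078 and 0.035, and different numbers -0.06 to 0.019. Between control mTEChi and cTECs, same numbers gave 0, 0.098 and -0.037, and different numbers -0.055 to 0.063. With a block by genotype and number, 9 of the 10 genes stayed higher in HOIL-deficient mTEChi than in cTECs, and 10 in control mTEChi. With 3 libraries a group and counts near 0 in cTECs, depth limits what can be seen of the regulators there.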
